A study of Mus musculus with 14 samples.

Results

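The actin cytoskeleton of the kidney was followed after ischemic injury through 10 genes that code for actin itself and for proteins that bind it: Cnn2 and Cnn3 (calponins 2 and 3), Actb and Actg1 (β- and γ-actin), Tmsb4x and Tmsb10 (thymosins β4 and β10), Pfn1 (profilin 1), Flna (filamin A), and Tpm1 and Tpm4 (tropomyosins). They were taken by gene symbol, and all 10 were found among the 24411 symbols of the count tables and passed the filter on low counts that left 14300 genes for testing. The kidneys came from male C57/B6 mice aged 8 weeks. Total RNA was sequenced from 4 libraries at day 0, 5 libraries at day 1 and 5 libraries at day 3 after acute kidney injury by renal ischemia/reperfusion injury (IRI). No genotype or further agent is given, and it is not stated whether the day 0 kidneys were sham-operated. The labels name the replicates of a day only by number, so p-values measure the spread between these samples. The question put to the data was which actin genes changed with Cnn2, the gene the study follows.

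Actin exists as free monomers and as filaments. Thymosins hold monomers in reserve, whereas profilin passes them on to growing filament ends. Tropomyosins and calponins lie along filaments and stabilize them, and filamin links filaments into networks and to the membrane. Tubular epithelial cells of the kidney carry a dense actin core in their apical brush border, which is disassembled in ischemia, and many actin genes are under the control of serum response factor (SRF), which binds a DNA element called the CArG box, and of its MRTF coactivators, which sense the pool of free monomers.

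The promoters of Cnn2 and Tpm1, the pair whose levels ran most closely together in these kidneys, are shown for the 250 bases before the RefSeq transcription start (GRCm38.p6). Capitals mark the SRF element (the CArG box) and the GC box GGGCGG on the strand shown. The Cnn2 sequence is chr10:79988350-79988599 on the plus strand and the Tpm1 sequence is chr9:67049214-67049463 on the minus strand, both printed 5′ to 3′ along the gene.

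Cnn2: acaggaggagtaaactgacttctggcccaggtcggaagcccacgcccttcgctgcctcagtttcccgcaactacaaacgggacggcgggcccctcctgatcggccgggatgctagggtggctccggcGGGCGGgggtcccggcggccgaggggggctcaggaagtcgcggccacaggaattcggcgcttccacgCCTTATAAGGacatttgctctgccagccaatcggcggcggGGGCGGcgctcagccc

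Tpm1: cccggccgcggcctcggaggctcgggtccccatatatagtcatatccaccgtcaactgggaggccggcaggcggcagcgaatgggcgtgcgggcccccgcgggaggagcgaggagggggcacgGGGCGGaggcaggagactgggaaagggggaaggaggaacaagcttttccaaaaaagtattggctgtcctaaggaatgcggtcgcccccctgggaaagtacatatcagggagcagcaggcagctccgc

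Over 32851 promoters of 300 bases (250 before and 50 after the start), the letters of a CArG box were present in 1.63% on either strand, and in at least 1 promoter of 1.81% of the 27025 genes. Among the 9 genes with an entry, they were present in Cnn2 and in Actg1, whose 30 bases around the element are chr11:120348566-120348595 on the minus strand.

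Actg1: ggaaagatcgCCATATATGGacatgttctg

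The box began 56 bases before the start in Cnn2 and 90 bases before it in Actg1. The GC box GGGCGG was present in 9 of 9 genes (11 promoters) against 38.2% of all genes, the AP-1 motif TGANTCA in 0 of 9 against 8.97% and TATAAA in 0 of 9 against 9.77%. The CArG box, GC box and AP-1 motif were searched on both strands, and TATAAA on the strand of the gene only. A CArG box may overlap TATAAA. These matches describe the letters in the window only, and the part of SRF in the levels of these genes was not tested. Actb has no entry in the table of promoters.

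In the GENCODE vM21 annotation of GRCm38, the 10 genes lie on 8 chromosomes, Cnn2 at chr10:79988584-79996062 (plus strand), Cnn3 at chr3:121426497-121458207 (plus strand), Actb at chr5:142903115-142906754 (minus strand), Actg1 at chr11:120345690-120348542 (minus strand), Tmsb4x at chrX:167207093-167209315 (minus strand), Tmsb10 at chr6:72957347-72958748 (minus strand), Pfn1 at chr11:70651850-70654644 (minus strand), Flna at chrX:74223461-74249820 (minus strand), Tpm1 at chr9:67022590-67049406 (minus strand) and Tpm4 at chr8:72134975-72153142 (plus strand). Cnn3 and Tpm4 overlap antisense genes, whose reads the strand column counts apart, and Actg1 overlaps 2 small RNA genes on its own strand.

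Reads on genes ranged from 12485579 to 20476979 per library, and reads on the 10 genes made up 0.195% to 0.205% of them at day 0, 0.316% to 0.557% at day 1 and 0.329% to 0.522% at day 3. The lowest count of any of these genes in a library was 211 (Tmsb10). Levels are given as CPM, that is counts scaled to a common library size, here after trimmed mean of M values (TMM) scaling. The libraries also fall into 2 name formats, with a number of 1 or of 3 digits in the library name, which was treated as a possible technical batch because the labels do not say what the number is. All day 0 libraries have 1-digit names, as do replicates 3, 4 and 5 of day 1 and replicates 4 and 5 of day 3. The other two libraries of day 1 and the other three of day 3 have 3-digit names. Markers of the labelled tissue were present in every library: the summed level of 8 proximal tubule genes was 12272 to 13761 CPM at day 0, and no gene of that list was at 0.

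Compared with day 0, all 10 genes were higher at day 1 and 8 of 10 were higher at day 3 (edgeR's quasi-likelihood test, Benjamini-Hochberg adjusted p under 0.05 over all genes tested). Over all 14300 genes, 23.3% were called higher at day 1 and 19.5% at day 3. Both comparisons share the 4 libraries of day 0. The median log2 fold change of the 10 genes was 1.17 at day 1 and 1.05 at day 3, against 0.01 and 0.05 over all genes. In 8 of the 10 genes, every day 1 library lay above every day 0 library, as in 21.5% of all genes. The same held for 9 of the 10 genes at day 3, against 16.9% of all genes. In RNA from whole tissue, fewer cells of a type and less RNA per cell cannot be told apart.

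**Figure D1:**
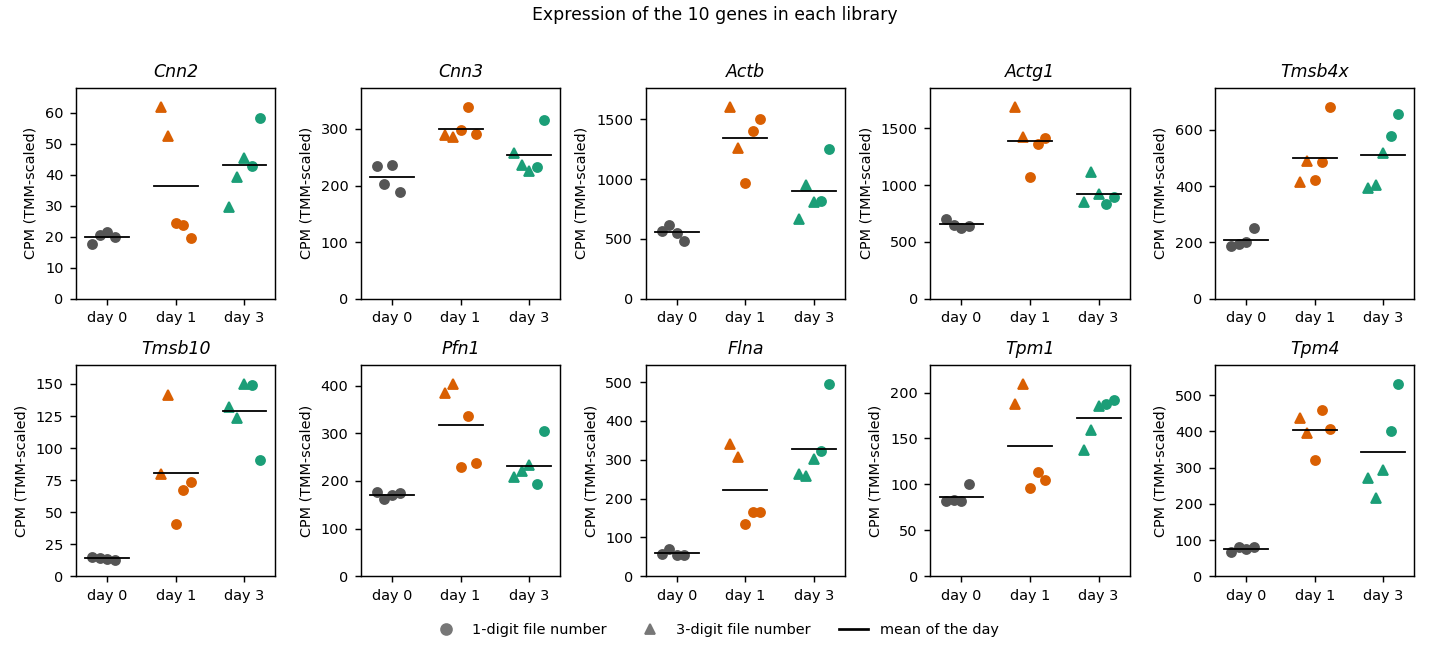
TMM-scaled CPM of the 10 genes (y axes, linear, each from 0) in each of 14 libraries at day 0, day 1 and day 3 (x axes). Circles are libraries with 1-digit and triangles libraries with 3-digit numbers, and lines are means of the day. Tmsb10 and Tpm4 have the highest log2 fold changes at day 1 (2.54 and 2.41). The 3-digit libraries of day 1 lie wholly above the 1-digit ones for Cnn2, Flna, Tpm1, Tmsb10, Pfn1 and Actg1, and below them for Cnn3.

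Cnn2 stood at 17.5, 20.5, 21.6 and 19.9 CPM in replicates 1 to 4 of day 0, at 62.0, 52.4, 24.4, 23.7 and 19.7 CPM in replicates 1 to 5 of day 1, and at 29.7, 39.4, 45.4, 42.7 and 58.3 CPM in replicates 1 to 5 of day 3. The day 1 values overlapped those of day 0 and only the 3-digit pair stood clearly above them, whereas all day 3 values were above day 0. The log2 fold change was 0.88 (SE 0.31, adjusted p = 0.0371) at day 1 and 1.11 (SE 0.32, adjusted p = 0.0157) at day 3. The day 1 call was lost when any 1 of 7 libraries was left out and under 5 other settings, among them total counts without TMM (adjusted p = 0.0564), the replicate block (adjusted p = 0.0898), only the 1-digit libraries of days 1 and 3 (log2 fold change 0.22, adjusted p = 0.203) and leaving out replicate 1 of day 1 (0.57, adjusted p = 0.112).

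Cnn3 was more abundant than Cnn2 in every library. Its levels were 234, 203, 236 and 189 CPM at day 0, 289, 287, 297, 339 and 291 CPM at day 1 and 258, 236, 225, 233 and 316 CPM at day 3, with no overlap between day 0 and day 1 and with overlap between day 0 and day 3. The rise at day 1 was small, with a log2 fold change of 0.48 (SE 0.13, adjusted p = 0.00914), and the difference at day 3 did not pass the test at 0.24 (SE 0.13, adjusted p = 0.171). It passed at day 3 under total counts without TMM (0.38, adjusted p = 0.0354). Cnn1, the calponin of smooth muscle, was at a mean of 1.69 CPM at day 1 and 1.80 CPM at day 3, with log2 fold changes of 0.20 (adjusted p = 0.859) and 0.27 (adjusted p = 0.823).

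Both cytoplasmic actins had their highest mean at day 1. Actb stood at 570.0, 618, 550.5 and 485 CPM at day 0, 1605, 1264, 967, 1400.3 and 1503 CPM at day 1 and 664, 949.7, 810.0, 819 and 1255 CPM at day 3. Neither day overlapped day 0, and day 1 and day 3 overlapped each other. Actb was 2.42-fold higher at day 1, a log2 fold change of 1.28 (SE 0.20, adjusted p = 3.18e-04), and 1.62-fold higher at day 3, a log2 fold change of 0.69 (SE 0.20, adjusted p = 0.0150). Actg1 stood at 703, 652, 621 and 637 CPM at day 0, 1690.1, 1419.6, 1069, 1361 and 1411 CPM at day 1 and 849.9, 1116, 923, 834 and 895 CPM at day 3, again with no overlap with day 0. Its log2 fold change was 1.09 (SE 0.15, adjusted p = 1.45e-04) at day 1 and 0.50 (SE 0.15, adjusted p = 0.0197) at day 3, and the latter call was lost with the format as a term (0.37, adjusted p = 0.0648) and without replicate 2, 3 or 4 of day 0 (0.50, 0.48 and 0.49, adjusted p = 0.052, 0.0603 and 0.0522).

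From day 1 to day 3 both actins fell, and they were the only 2 of the 10 genes called between these days, against 7.39% of all genes called lower. The log2 difference was -0.58 (SE 0.18, adjusted p = 0.0427) for Actb and -0.59 (SE 0.14, adjusted p = 0.0141) for Actg1. The Actb call was not stable. It was lost when any 1 of 11 libraries was left out, with adjusted p up to 0.0991, and under 3 other settings, among them the 1-digit libraries alone (-0.33, adjusted p = 0.281). The Actg1 call was lost under total counts without TMM (-0.44, adjusted p = 0.0758) and with only the 2 days compared (-0.59, adjusted p = 0.0589). For the other 8 genes the log2 difference lay between -0.46 (Pfn1, SE 0.17, adjusted p = 0.085) and 0.68 (Tmsb10, SE 0.25, adjusted p = 0.0729), and the Tmsb10 difference passed under 3 other settings, with DESeq2 at 0.67 (adjusted p = 0.0477). Leaving out replicate 2 of day 1 or replicate 5 of day 3 also let it pass (0.99 and 0.77, adjusted p = 0.00463 and 0.0423). Pfn1 passed with DESeq2 (-0.48, adjusted p = 0.0349), with only the 3-digit libraries (-0.84, adjusted p = 0.00226) and, as did Cnn3, without replicate 5 of day 3 (-0.60 and -0.36, adjusted p = 0.0237 and 0.0344). Tpm4 passed with only the 3-digit libraries (-0.68, adjusted p = 0.0162), and Flna, at 0.56 (adjusted p = 0.15), without replicate 1 of day 1 (0.75, adjusted p = 0.0491). Within the 1-digit libraries, Cnn2 (1.14, adjusted p = 7.46e-04), Flna (1.38, adjusted p = 5.61e-04) and Tpm1 (0.84, adjusted p = 9.53e-04) were higher at day 3 than at day 1. Within the 3-digit libraries the same differences were -0.59 (adjusted p = 0.0502), -0.24 and -0.31.

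Among the monomer-binding genes, Tmsb10 had the highest log2 fold change of the 10 genes on both days, although at day 1 it differed from that of Tpm4 by less than the SE. It stood at 14.9, 14.2, 13.6 and 12.8 CPM at day 0, 79.7, 141, 41.0, 67.2 and 73.3 CPM at day 1 and 132, 124, 149.8, 149 and 91.0 CPM at day 3. Every injured kidney was far above every day 0 kidney, and the day 1 libraries spread over a wide range. The difference was 5.80-fold at day 1 (log2 fold change 2.54, SE 0.29, adjusted p = 3.41e-05) and 9.31-fold at day 3 (log2 fold change 3.22, SE 0.30, adjusted p = 9.40e-06). Tmsb4x, the more abundant thymosin, stood at 188, 195, 203 and 251 CPM at day 0, 413, 489, 421, 486 and 682 CPM at day 1 and 392, 405, 518, 578 and 655 CPM at day 3. Its log2 fold change was 1.25 (SE 0.20, adjusted p = 3.29e-04) at day 1 and 1.29 (SE 0.20, adjusted p = 3.96e-04) at day 3, with no overlap with day 0 on either day. Pfn1 stood at 176, 162, 171 and 175 CPM at day 0, 385, 403, 230.1, 336 and 238 CPM at day 1 and 209, 220.5, 233, 194 and 304 CPM at day 3. It was higher at day 1, with a log2 fold change of 0.89 (SE 0.19, adjusted p = 0.00218). At day 3 its libraries still lay above those of day 0, but the difference did not pass the test over 14 libraries, at 0.44 (SE 0.19, adjusted p = 0.0817). It did pass when only days 0 and 3 were fitted (0.42, adjusted p = 0.0371), and with only the 1-digit (0.56, adjusted p = 0.0308) or only the 3-digit libraries of days 1 and 3 (0.37, adjusted p = 0.0123).

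Of the genes that bind filaments, Tpm4, a non-muscle tropomyosin, rose to 5.33-fold at day 1 and 4.51-fold at day 3. It stood at 67.3, 80.3, 76.0 and 79.8 CPM at day 0, 438, 396, 321, 460.1 and 405 CPM at day 1 and 271, 216, 294, 400.3 and 529.9 CPM at day 3. The groups did not overlap day 0, and the log2 fold changes were 2.41 (SE 0.23, adjusted p = 1.33e-05) and 2.17 (SE 0.23, adjusted p = 2.86e-05). Flna stood at 58.0, 71.3, 55.8 and 55.3 CPM at day 0, 339, 306, 136, 165 and 166 CPM at day 1 and 263, 258, 301, 322 and 494 CPM at day 3, with no overlap with day 0. Its log2 fold changes were 1.89 (SE 0.29, adjusted p = 2.84e-04) and 2.45 (SE 0.30, adjusted p = 8.35e-05). Tpm1, which codes for several muscle and non-muscle tropomyosins, stood at 82.3, 82.6, 81.7 and 100.1 CPM at day 0, 188, 209, 96.2, 113 and 105 CPM at day 1 and 137, 159, 186, 188 and 192 CPM at day 3. As for Cnn2, its 1-digit day 1 libraries overlapped day 0 and its day 3 libraries did not. Its log2 fold changes were 0.72 (SE 0.22, adjusted p = 0.0187) and 0.99 (SE 0.22, adjusted p = 0.00450), and the day 1 call was lost with the format as a term (0.54, adjusted p = 0.0518) and without replicate 1 or 3 of day 0 or replicate 1 of day 1 (0.69, 0.69 and 0.57, adjusted p = 0.0508, 0.0506 and 0.0518). All values in these paragraphs are listed from replicate 1 upwards.

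Levels of different genes were compared per kilobase of the longest coding transcript (GENCODE vM21 on GRCm38, the build that the submitters' processing notes call mm10). At day 0 the order was Actg1 (335 ± 18.2 CPM per kilobase, SD, n = 4), Actb (289.6 ± 28.8), Tmsb4x (242 ± 33.3), Pfn1 (199 ± 7.52), Cnn3 (105 ± 11.3), Tpm4 (35.6 ± 2.82), Tpm1 (29.99 ± 3.11), Tmsb10 (20.1 ± 1.33), Cnn2 (8.09 ± 0.699) and Flna (7.11 ± 0.894). The ranges of Actg1 and Actb, Actb and Tmsb4x, Tpm4 and Tpm1, and Cnn2 and Flna overlapped, and the other neighbours were separate in all 4 libraries. At day 1 the mean of Tpm4 lay above that of Cnn3 and the mean of Tmsb10 above that of Tpm1, and at day 3 the mean of Tmsb10 (187 ± 34.9 CPM per kilobase, n = 5) lay above that of Cnn3 (124 ± 17.9), but the ranges of each of these pairs overlapped. Cnn2 had the lowest mean of the 10 at day 1 (14.8 ± 7.86), where its range overlapped that of Flna, and at day 3 (17.5 ± 4.21), where it did not. Only uniquely mapped reads were counted, which lowers the levels of genes with near-identical copies. The share of a gene's 50-base windows also found in transcripts of other genes was 56.7% for Actg1, 43.5% for Tmsb10, 30.3% for Cnn3, 16.1% for Tpm4, 14.2% for Actb and 0% for the rest, so the levels of these 5 genes are uncertain.

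The genes differed in whether their change depended on the name format. Between 3-digit and 1-digit libraries of day 1, 5 of the 10 genes were called higher, against 18.6% of all genes. They were Cnn2, with a log2 difference of 1.34 (SE 0.19, adjusted p = 4.18e-04), Flna with 1.05 (SE 0.18, adjusted p = 0.00120), Tpm1 with 0.92 (SE 0.15, adjusted p = 7.84e-04), Tmsb10 with 0.87 (SE 0.27, adjusted p = 0.0238) and Pfn1 with 0.55 (SE 0.19, adjusted p = 0.0382). The calls of Tmsb10 and Pfn1 were the less stable. The 3-digit side holds replicates 1 and 2 only, so leaving out either sets 1 library against 3, with the spread taken from the other groups and the lone library assumed to vary like them. On that footing Tmsb10 was at 0.40 (adjusted p = 0.385) without replicate 2. It also lost its call without replicate 3 of day 1 (0.65, adjusted p = 0.0718), and Pfn1 lost its call when any 1 of 7 libraries was left out, with adjusted p up to 0.171. Actb (0.15, SE 0.24, adjusted p = 0.643), Actg1 (0.28, SE 0.17, adjusted p = 0.218), Tmsb4x (-0.23, SE 0.21, adjusted p = 0.415), Tpm4 (0.08, SE 0.19, adjusted p = 0.779) and Cnn3 (-0.10, SE 0.16, adjusted p = 0.637) were not called. Actg1 was called under total counts without TMM (0.48, adjusted p = 0.0424), a setting that moved the median of all genes to 0.24.

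At day 3 the called differences ran the other way. There, 2 genes were called lower in the 3-digit libraries, Tpm4 with -0.84 (SE 0.18, adjusted p = 0.0120) and Flna with -0.57 (SE 0.18, adjusted p = 0.0447), against 8.22% of all genes, and none of the 10 higher. Without replicate 5 of day 3, which had the highest Tpm4 and Flna of all libraries, neither was called (-0.64, adjusted p = 0.132, and -0.25, adjusted p = 0.44), but the 1-digit side was then the single library of replicate 4, with the spread again taken from the other groups. The Flna call was lost when any 1 of 12 libraries was left out, and under total counts without TMM (-0.54, adjusted p = 0.0779). The change of the format difference from day 1 to day 3 was tested directly. It was negative and called for 4 genes, against 8.45% of all genes: Cnn2 with -1.74 (SE 0.27, adjusted p = 0.00147), Flna with -1.63 (SE 0.26, adjusted p = 0.00171), Tpm1 with -1.16 (SE 0.21, adjusted p = 0.00321) and Tpm4 with -0.91 (SE 0.26, adjusted p = 0.0294). The Tpm4 call was lost when any 1 of 5 libraries was left out, with adjusted p up to 0.112. Pfn1, at -0.73 (SE 0.27, adjusted p = 0.0802), was called under total counts without TMM (-0.90, adjusted p = 0.0475) and without replicate 4 of day 1 (-0.92, adjusted p = 0.0243) or of day 3 (-1.02, adjusted p = 0.0162), the latter with 1 library on the 1-digit side of day 3.

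Against day 0, the 1-digit libraries of day 1 had 8 of 10 genes called higher (28.9% of all genes) and the 3-digit libraries of day 1 had 10 of 10 (22.6%). The 8 did not include Cnn2 (log2 fold change 0.18, SE 0.16, adjusted p = 0.344) and Tpm1 (0.28, SE 0.12, adjusted p = 0.0722, called under 4 other settings, with DESeq2 at adjusted p = 0.0473), while Actb (1.21), Actg1 (0.97), Tmsb4x (1.34), Tmsb10 (2.12), Tpm4 (2.38), Flna (1.37), Pfn1 (0.65) and Cnn3 (0.52) were called in these same 3 kidneys. At day 3, 9 of 10 genes were called in the 1-digit libraries (28.6% of all genes) and 7 of 10 in the 3-digit libraries (19.1%). Cnn3 was called in neither, although in the 1-digit libraries (0.35, adjusted p = 0.0591) it was called under total counts without TMM (0.47, adjusted p = 0.0165) and with replicate 5 as the only library (0.56, adjusted p = 0.0139). Pfn1 (0.37, adjusted p = 0.0981) and Actb (0.54, adjusted p = 0.0519) were not called in the 3-digit libraries, although Actb was called under 6 other settings and Pfn1 under 3, with adjusted p of 0.0192 and 0.0335 under total counts without TMM. The 1-digit libraries of day 3 are replicates 4 and 5. With replicate 4 as the only library, and the spread taken from the other groups, 6 of 10 were called, with Actb (0.58, adjusted p = 0.0841), Actg1 (0.38, adjusted p = 0.152) and Pfn1 (0.20, adjusted p = 0.416) lost. With replicate 5 as the only library, Pfn1 was at 0.83 (adjusted p = 0.00322), against 0.54 with both. The Actg1 call there (0.40, adjusted p = 0.0472) was lost when any 1 of 10 libraries was left out and under 3 other settings, RLE, no filter and at least 10 counts in every library (adjusted p = 0.0619, 0.113 and 0.0596). The Cnn3 call in the 3-digit libraries of day 1 was lost when any 1 of 5 libraries was left out, with adjusted p up to 0.177.

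**Figure D2:**
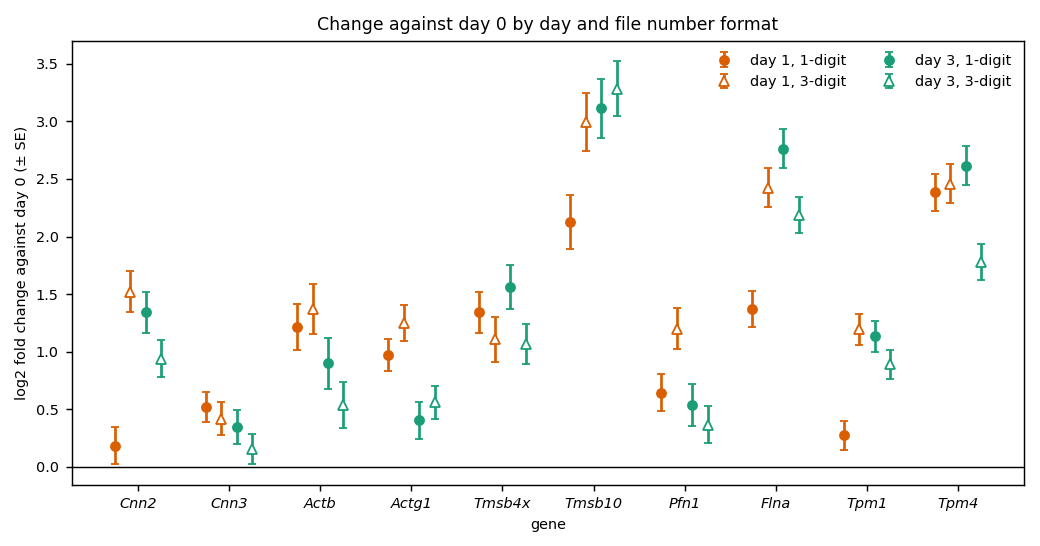
Log2 fold change against day 0 (y axis, ± SE of edgeR's quasi-likelihood fit) of the 10 genes (x axis) for libraries of day 1 and day 3 with 1-digit (filled circles) and 3-digit numbers (open triangles). The 1-digit libraries of day 1 are low for Cnn2 (0.18), Tpm1 (0.28) and Flna (1.37), and not for Tpm4 (2.38).

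Summed levels of markers of other cells moved with the same split. The summed level of 8 smooth muscle genes was 144 to 173 CPM at day 0, and, at day 1, 311 to 399 CPM with 1-digit and 499 to 584 CPM with 3-digit names, while at day 3 it was 785 to 966 CPM with 1-digit and 294 to 350.2 CPM with 3-digit names. Of these 8 genes, 7 were called higher in the 3-digit libraries at day 1, against 18.6% of all genes, and 4 were called lower at day 3, against 8.22%. In the 1-digit libraries of day 1, 3 of the 8 were called higher and 1 lower than at day 0, against 28.9% and 29.6% of all genes, with a median log2 fold change of -0.27, and most of the sum came from Smtn (85.7 CPM at day 0 and 210.4 CPM in these libraries) and Tagln (24.9 and 103 CPM). No gene of the list was at 0 throughout a group, and Myh11, the smooth muscle myosin, was not called against day 0 at day 1 (-0.28, adjusted p = 0.654) or day 3 (0.44, adjusted p = 0.488). It was called lower at day 1 when injured kidneys with 3-digit names were left out (-1.18, adjusted p = 0.0308). The sum of 8 tubular injury genes was 1322 to 1699.9 CPM at day 0. It was 9478 to 17594 CPM with 1-digit and 32733 to 38306 CPM with 3-digit names at day 1, against 37470.4 to 44969 CPM and 7063 to 34078 CPM at day 3. Of these 8 genes, 2 were called higher in the 3-digit libraries at day 1, against 18.6% of all genes. Their median log2 difference was 0.21, against 0.03 over all genes. At day 3, 1 was called lower, against 8.22%. Spp1 had the highest mean of the list over the 14 libraries (15015.5 CPM), followed by Lcn2 (1238 CPM). The proximal tubule sum was 8294 to 12833 CPM with 1-digit and 2861 to 3560.1 CPM with 3-digit names at day 1, and 1943 to 3178 CPM and 5174 to 11048 CPM at day 3. The sum of 8 fibroblast and pericyte genes was 139 to 146 CPM at day 0, 149.9 to 204 CPM with 1-digit and 341 to 449.8 CPM with 3-digit names at day 1, and 539.9 to 1173 CPM at day 3. The part of these cell types in the levels of Cnn2, Flna and Tpm1 was not tested. Reads mapped to several places were also most frequent in the 1-digit libraries of day 1, at 10.9% to 12.7% against 6.49% to 9.81% in all other libraries, and their part was not tested.

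Several other marker lists also differed by name format. The 8 macrophage genes summed to 132 to 221 CPM at day 0, to 84.4 to 91.3 CPM with 1-digit and 126 to 148 CPM with 3-digit names at day 1, and to 104 to 125 CPM and 235 to 448 CPM at day 3, where 5 of the 8 were called higher and 1 lower in the 3-digit libraries, against 10.3% and 8.22% of all genes. At day 1, 1 of the 8 was called higher in the 3-digit libraries, against 18.6% of all genes, and 0 were called lower. Endothelial genes summed to 379 to 488 CPM at day 0, overlapped between formats at day 1 (417 to 546 CPM in all), and summed to 618 to 947 CPM with 1-digit and 226 to 401 CPM with 3-digit names at day 3, where 6 of 8 were called lower in the 3-digit libraries (8.22% of all genes). Between these formats the change from day 1 to day 3 was called negative for 5 of the 8 endothelial genes (8.45% of all genes). Urothelial genes summed to 4.12 to 83.8 CPM at day 0 and, at day 1, to 5.38 to 10.4 CPM with 1-digit and 21.0 to 125 CPM with 3-digit names, with 4 of 8 called higher (18.6% of all genes), and the formats overlapped at day 3 (3.94 to 53.7 CPM). T cell genes summed to 2.13 to 3.57 CPM at day 0, and to 2.79 to 4.18 against 1.99 to 2.73 CPM at day 1 and 3.30 to 4.70 against 2.08 to 3.21 CPM at day 3 with 1-digit against 3-digit names. Platelet and red cell genes, with Hbb-bs and Hba-a1 at 0 in all libraries, summed to 14.2 to 20.8 CPM at day 0 and to 24.5 to 50.2 against 12.7 to 13.5 CPM at day 1, and overlapped at day 3 (11.5 to 31.95 CPM). Neutrophil genes, of which 7 of the 8 listed were among the symbols, overlapped between formats on both days. They summed to 1.33 to 2.07 CPM at day 0, where Elane was at 0, 49.3 to 206 CPM at day 1 and 19.6 to 419 CPM at day 3, and 6 of the 6 tested were called higher on each day, against 23.3% and 19.5% of all genes. The 5 genes of other tubule segments also overlapped between formats, at 7402 to 9831, 3820 to 6256 and 2341 to 3686 CPM on the 3 days. The part of these cells in the levels of the 10 genes was not tested.

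Which actin genes moved with Cnn2 was then asked over the 14 libraries, by the correlation of log2 CPM, with p-values from 100000 permutations (two-sided) adjusted over the 14299 other genes. Of the 9 genes, 3 were called, all positive, against 5.63% of all genes called positive. Tpm1 had a Pearson r of 0.95 (p = 1e-05, the smallest the permutations can give, adjusted p = 0.0105) and a Spearman rho of 0.87 (p = 6e-05, adjusted p = 0.0316), the highest r with Cnn2 of all 14299 genes. Flna had r = 0.88 (p = 5e-05, adjusted p = 0.0105) and rho = 0.88 (p = 6e-05, adjusted p = 0.0316), which put it at rank 42. Tmsb10 had r = 0.74 (p = 0.00334, adjusted p = 0.0354) and rho = 0.71 (p = 0.00552, adjusted p = 0.0609), at rank 551, and its call by r was lost when any 1 of 9 libraries was left out, with r between 0.70 and 0.76.

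The remaining 6 genes did not pass. Tpm4 had r = 0.67 (p = 0.0119, adjusted p = 0.0721) and rho = 0.58 (p = 0.0317, adjusted p = 0.145), Pfn1 had r = 0.67 (p = 0.0102, adjusted p = 0.0661) and rho = 0.62 (p = 0.0208, adjusted p = 0.114) and Tmsb4x had r = 0.59 (p = 0.0291, adjusted p = 0.121) and rho = 0.48 (p = 0.0884, adjusted p = 0.264). Each of these 3 passed in at least 1 alternative: Pfn1 without replicate 4 of day 1 (r = 0.78, adjusted p = 0.0257) and with total counts (0.76, adjusted p = 0.0238), Tpm4 without replicate 4 or 5 of day 1 (0.75 and 0.78, adjusted p = 0.0463 and 0.0296), and Tmsb4x without replicate 5 of day 1 (0.78, adjusted p = 0.0254). The actins and Cnn3 were lower still. Actb had r = 0.53 (p = 0.0546, adjusted p = 0.179) and rho = 0.49 (p = 0.0778, adjusted p = 0.244), Actg1 had r = 0.47 (p = 0.0875, adjusted p = 0.237) and rho = 0.49 (p = 0.0781, adjusted p = 0.245), and Cnn3, the paralog of Cnn2, had r = 0.32 (p = 0.261, adjusted p = 0.474) and rho = 0.29 (p = 0.315, adjusted p = 0.536). The median r of the 9 genes was 0.67, against 0.05 over all genes. The lowest 7 Cnn2 levels belonged to the 4 kidneys of day 0 and the 3 1-digit kidneys of day 1. In those 3 kidneys of day 1, Actb (log2 fold change 1.21) and Actg1 (0.97) were called higher than at day 0 and Cnn2 was not (0.18).

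**Figure D3:**
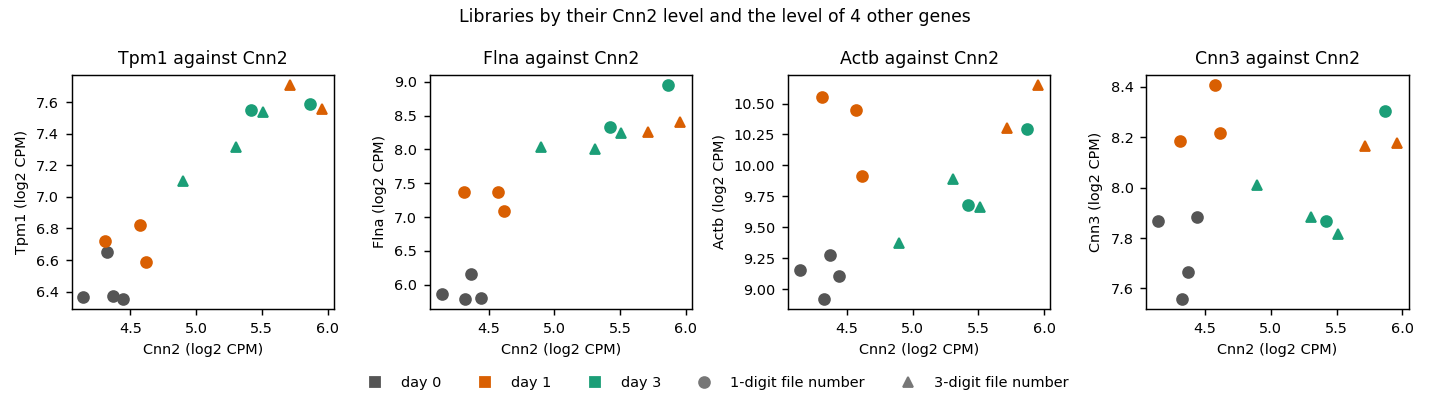
Log2 CPM of Tpm1, Flna, Actb and Cnn3 (y axes) against log2 CPM of Cnn2 (x axes) in 14 libraries, coloured by day, with circles for 1-digit and triangles for 3-digit numbers. Tpm1 and Flna rise with Cnn2 (r = 0.95 and 0.88), while the 1-digit libraries of day 1 have high Actb and Cnn3 at low Cnn2 (r = 0.53 and 0.32).

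After the mean of each day was removed, so that only libraries of the same day were compared, Tpm1 (r = 0.91, p = 0.00635), Flna (r = 0.89, p = 0.0044) and Pfn1 (r = 0.78, p = 0.0348) had an unadjusted p under 0.05, permuted within days. Within-day rho was 0.83 (p = 0.0093), 0.84 (p = 0.00847) and 0.61 (p = 0.0754), respectively. None of the 9 genes passed the adjustment (adjusted p = 0.337 for each of the 3), and 0% of all 14299 genes were called, by Pearson's r or by Spearman's rho, with 2086 genes at an unadjusted p under 0.05. By the same permutation test, Tmsb10 had a within-day r of 0.39 (p = 0.484), Actg1 0.42 (p = 0.337), Actb 0.42 (p = 0.206), Tpm4 0.37 (p = 0.158), Cnn3 -0.03 (p = 0.92) and Tmsb4x -0.04 (p = 0.917). The median was 0.42 over the 9 genes and 0.04 over all genes.

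When the mean of each day and format was removed, which leaves only differences among the 2 to 4 libraries of each set, r was 0.40 for Tpm1 (p = 0.329), 0.45 for Flna (p = 0.304), 0.48 for Pfn1 (p = 0.285) and -0.51 for Tmsb10 (p = 0.134) by the permutation test. None was called (adjusted p = 0.998 for each). Over the 10 injured kidneys alone, Tpm1 (r = 0.94, adjusted p = 0.0733) and Flna (r = 0.90, adjusted p = 0.079) stood beside 0.95 and 0.88 over all 14, while r was -0.24 for Cnn3, -0.05 for Actg1, -0.04 for Tmsb4x and 0.05 for Actb. Without the 2 libraries farthest from the median of Cnn2 (replicate 1 of day 1 and replicate 5 of day 3), r was 0.96 for Tpm1 (adjusted p = 0.0474), 0.85 for Flna (adjusted p = 0.0509) and 0.82 for Tmsb10 (adjusted p = 0.0586).

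**Figure D4:**
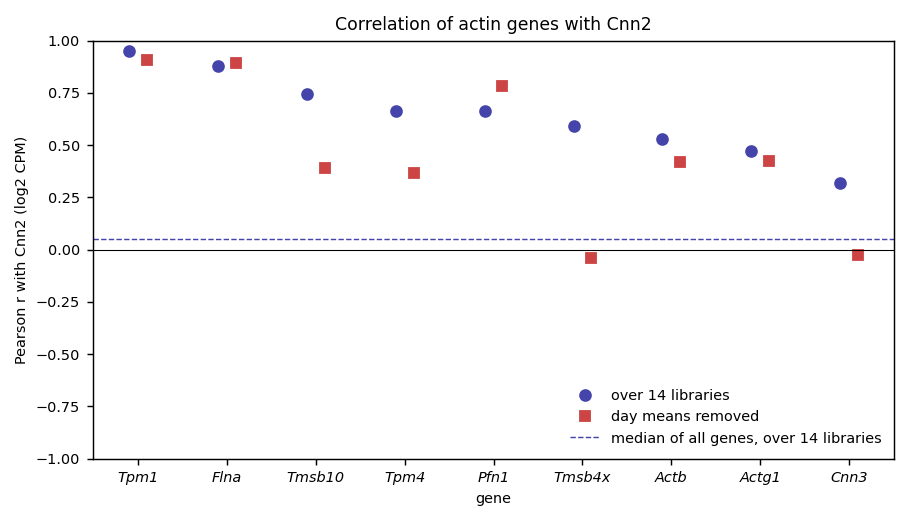
Pearson r with Cnn2 (y axis) of the 9 other genes (x axis) over 14 libraries (circles) and with day means removed (squares), with the median of all genes over 14 libraries as a dashed line at 0.05. Tpm1 and Flna stay at 0.88 or above in both, and Tmsb4x and Cnn3 fall to -0.04 and -0.03 within days.

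Among genes with a mean of at least 5 CPM, the 5 most like Cnn2 over the 14 libraries were Tpm1 (r = 0.95), Spns2 (0.94), a sphingosine-1-phosphate transporter, Car5b (0.93), a mitochondrial carbonic anhydrase, Cyfip1 (0.93), a subunit of the WAVE complex that activates Arp2/3, and Pafah1b3 (0.93). The 5 most opposed were Atp5f1 (-0.93), a subunit of the mitochondrial ATP synthase, Rabl6 (-0.93), Pdia3 (-0.93), a chaperone of the endoplasmic reticulum, C1qtnf3 (-0.92) and Wfdc15b (-0.92). All 10 had an adjusted p of 0.0105 by the permutation test, with Spearman's rho of 0.829 to 0.895 in the first set and -0.798 to -0.886 in the second, while 6.69% of all genes were called negative. Within days, the highest r belonged to Tbl3 (0.97), Rasgrp2 (0.97), Crk (0.95), an adaptor of adhesion signalling, Ldb2 (0.94) and Timd2 (0.94), each with an adjusted p of 0.337.

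Among the 10 genes themselves, the pairs with the highest r over the 14 libraries included Tmsb4x with Tpm4 (0.94), Tmsb10 with Flna (0.94), Actb with Actg1 (0.93) and Flna with Tpm1 (0.92), given as a description. With day means removed, these were 0.67, 0.43, 0.60 and 0.84.

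Beyond the 10 genes, 100 genes in 8 lists of actin regulation were examined, of which 95 passed the filter. At day 1, 49 were called higher and 6 lower, and at day 3, 45 were called higher and 4 lower, with median log2 fold changes of 0.48 and 0.41. Among all genes, 23.3% were called higher and 18.7% lower at day 1, and 19.5% higher and 13.8% lower at day 3, and the counts of each list below stand beside these shares. Without replicate 3 of day 0, 41 list genes were called higher at day 1 and 32 at day 3. In the 3-digit libraries, 24 of the 95 were called higher and 10 lower than in the 1-digit ones at day 1. At day 3, 6 were higher and 21 lower. Of all 14300 genes, 2656 were higher and 2345 lower at day 1, and 1470 higher and 1175 lower at day 3. In the list of calponins, transgelins and actin paralogs, 3 of 5 tested genes were higher on each day: Tagln, the smooth muscle transgelin, with 2.64 (SE 0.56, adjusted p = 0.00227) at day 1 and 3.28 (SE 0.57, adjusted p = 9.86e-04) at day 3, Acta2, smooth muscle actin, with 1.91 (SE 0.59, adjusted p = 0.0179) and 3.24 (SE 0.62, adjusted p = 0.00169), and Tagln2 with 1.79 (SE 0.23, adjusted p = 8.70e-05) and 1.78 (SE 0.23, adjusted p = 1.40e-04). Tagln and Acta2 are also among the smooth muscle markers above, which moved with the name format. Acta2 stood at 28.1 ± 8.80 CPM (SD) with 1-digit and 98.4 ± 2.28 CPM with 3-digit names at day 1. In edgeR's test its log2 difference between formats was 1.81 (SE 0.32, adjusted p = 0.00130) at day 1 and -1.81 (SE 0.31, adjusted p = 0.00520) at day 3. For Tagln it was 1.19 (SE 0.27, adjusted p = 0.00557) and -2.09 (SE 0.27, adjusted p = 0.00163).

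Of 14 genes for actin monomer binding and turnover, 6 were higher on each day and none lower. Coro1a, the coronin of leukocytes, stood at 4.49 ± 1.93 CPM at day 0 and 19.6 ± 4.08 CPM at day 3, with log2 fold changes of 1.27 (SE 0.29, adjusted p = 0.00342) at day 1 and 2.12 (SE 0.29, adjusted p = 2.01e-04) at day 3. Coro1c rose by 1.16 (SE 0.14, adjusted p = 6.20e-05) and 0.75 (SE 0.14, adjusted p = 0.00152). Ssh1, a phosphatase that activates cofilin, was called at day 3 with 1.05 (SE 0.24, adjusted p = 0.00519) and not at day 1 with 0.57 (SE 0.24, adjusted p = 0.0699). Of 21 genes of the Arp2/3 complex, its activators and formins, 11 were higher at day 1 and 13 at day 3, and none was lower. Arpc1b rose by 2.32 (SE 0.29, adjusted p = 6.82e-05) and 2.64 (SE 0.29, adjusted p = 4.12e-05), the formin Fmnl3 by 0.70 (SE 0.27, adjusted p = 0.0497) and 1.16 (SE 0.27, adjusted p = 0.00572), and Arpc5 by 0.68 (SE 0.17, adjusted p = 0.00627) and 1.02 (SE 0.17, adjusted p = 7.88e-04).

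Of 10 genes for filament capping and severing and tropomodulins, 6 were higher and 1, Eps8, was lower on each day. Capg, a capping protein, rose by 2.18 (SE 0.58, adjusted p = 0.00853) and 2.76 (SE 0.59, adjusted p = 0.00347), Gsn, gelsolin, by 0.88 (SE 0.24, adjusted p = 0.0106) and 0.72 (SE 0.24, adjusted p = 0.0338), and Capzb by 0.86 (SE 0.16, adjusted p = 0.00114) and 0.59 (SE 0.16, adjusted p = 0.0129). The day 1 level of Capg differed by name format, at 28.3 ± 12.6 CPM (SD, n = 3) with 1-digit and 158 ± 1.71 CPM (n = 2) with 3-digit names beside 17.7 ± 2.02 CPM (n = 4) at day 0, a log2 difference between formats of 2.48 (SE 0.33, adjusted p = 3.06e-04). When injured kidneys with 3-digit names were left out, its log2 fold change at day 1 was 0.71 (adjusted p = 0.0456). Of 10 crosslinkers and bundlers, 7 were higher at day 1 and 5 at day 3. Flnc, the filamin of muscle, rose from 0.597 ± 0.271 CPM at day 0 to 34.2 ± 21.3 CPM at day 1 and 36.0 ± 19.2 CPM at day 3, a log2 fold change of 5.82 (SE 0.59, adjusted p = 1.88e-05) and 5.89 (SE 0.59, adjusted p = 1.73e-05). Actn1, α-actinin 1, rose by 2.21 (SE 0.30, adjusted p = 1.14e-04) and 1.75 (SE 0.29, adjusted p = 7.04e-04), and Fscn1, fascin, by 1.94 (SE 0.32, adjusted p = 4.89e-04) and 1.46 (SE 0.32, adjusted p = 0.00376).

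Of 10 other tropomyosins and non-muscle myosin II genes, 4 were higher at day 1 and 6 at day 3, and 1, Myl12b, was lower at day 1. Tpm2 was at 1.16 (SE 0.49, adjusted p = 0.0671) at day 1, which did not pass the test, and 2.13 (SE 0.50, adjusted p = 0.00594) at day 3, which did. Its day 1 level was 12.6 ± 2.49 CPM (SD) with 1-digit and 46.1 ± 3.12 CPM with 3-digit names, beside 11.7 ± 0.441 CPM at day 0. In edgeR's test the log2 difference between formats was 1.87 (SE 0.21, adjusted p = 1.60e-04) at day 1. At day 3 it was -1.29 (SE 0.21, adjusted p = 0.00388). Myh9, the heavy chain of non-muscle myosin IIA, rose by 1.35 (SE 0.13, adjusted p = 1.56e-05) and 0.99 (SE 0.13, adjusted p = 1.64e-04), and Tpm3 by 1.35 (SE 0.18, adjusted p = 9.94e-05) and 0.81 (SE 0.17, adjusted p = 0.00341). Of 16 genes for adhesion and SRF-MRTF signalling, 11 were higher at day 1 and 5 at day 3. The small GTPase Rhoc rose by 1.74 (SE 0.23, adjusted p = 1.10e-04) and 1.01 (SE 0.23, adjusted p = 0.00441) and Zyx, zyxin of focal adhesions, by 1.72 (SE 0.23, adjusted p = 9.75e-05) and 0.76 (SE 0.22, adjusted p = 0.0171), while Tln2, talin 2, fell at day 1 with -1.59 (SE 0.54, adjusted p = 0.0281) and stood at -1.36 (SE 0.53, adjusted p = 0.0622) at day 3. Srf itself was at 0.60 (adjusted p = 0.047) at day 1 and 0.30 (adjusted p = 0.324) at day 3. In the brush border list, 3 of 9 genes were lower, 1, Ezr (ezrin), was higher and 5 were not called on each day. Pdzk1, a scaffold of apical transporters, fell at day 1 with -1.53 (SE 0.42, adjusted p = 0.00943) and was at -1.10 (SE 0.41, adjusted p = 0.0540) at day 3. Espn, espin, was lower at both days, with -0.78 (SE 0.28, adjusted p = 0.0384) and -1.16 (SE 0.29, adjusted p = 0.00734), and Cdhr5, a microvillar cadherin, was at -0.69 (SE 0.28, adjusted p = 0.0625) at day 1 and fell at day 3 with -1.27 (SE 0.28, adjusted p = 0.00441).

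Some calls of the named list genes depended on single libraries. Those lost when any 1 of several libraries was left out were Fmnl3 (12 libraries, adjusted p up to 0.11), Espn (8, up to 0.0972), Srf (8, up to 0.113), Tln2 (7, up to 0.0636) and Myl12b (5, up to 0.257) at day 1, and Ezr (8, up to 0.0998), Gsn (7, up to 0.0866) and Eps8 (4, up to 0.0948) at day 3, where the limits cover all settings run. Without replicate 3 of day 0, Acta2 at day 1 (1.77, adjusted p = 0.0541) and Zyx at day 3 (0.72, adjusted p = 0.0519) were also lost. With only the 3-digit libraries, Gsn was at 0.41 (adjusted p = 0.0899) at day 1. Other values that missed the threshold passed it under some settings. At day 3, Tln2 passed under 5, among them DESeq2 (-1.38, adjusted p = 0.0248) and without replicate 2 of day 3 (-2.13, adjusted p = 0.00155), Pdzk1 under 6 (with DESeq2 -1.11, adjusted p = 0.0226) and Srf under 1, only the 1-digit libraries (0.61, adjusted p = 0.048). At day 1, Cdhr5 passed under 7 (with DESeq2 -0.68, adjusted p = 0.0495), Ssh1 under 6 (with the format as a term 0.75, adjusted p = 0.0078) and Tpm2 under 3 (with DESeq2 1.15, adjusted p = 0.0326).

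**Figure D5:**
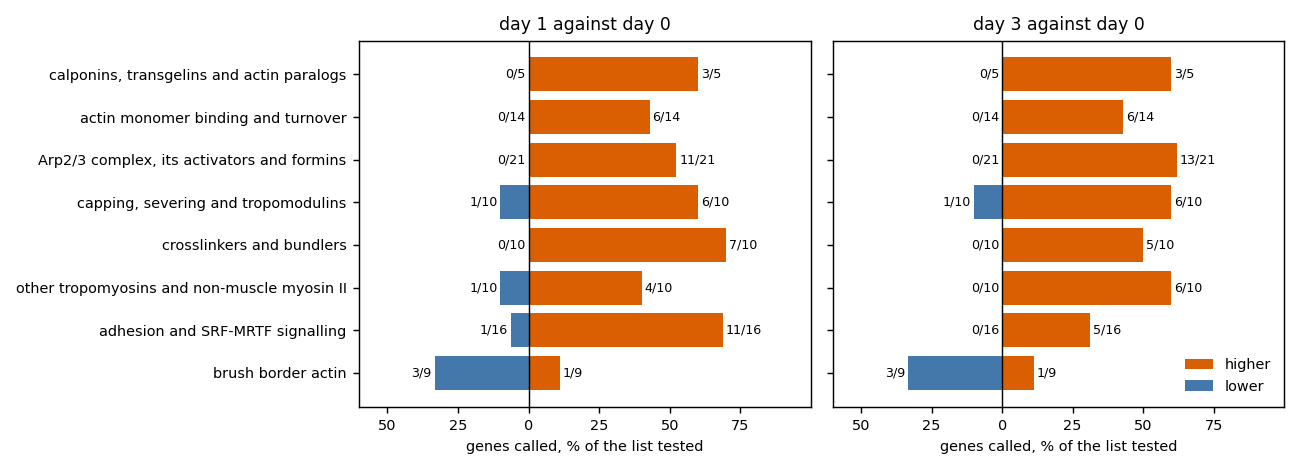
Genes called higher (right of 0) and lower (left of 0) against day 0 in 8 lists of actin genes, in percent of the genes tested (x axes), at day 1 (left panel) and day 3 (right panel), with counts printed beside the bars. The brush border list is the one with more genes lower (3 of 9) than higher (1 of 9).

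Over the 14 libraries, 15 of these 95 genes were positively and 4 negatively correlated with Cnn2 by the same test, against 5.63% and 6.69% of all genes, with a median r of 0.40 over 14 libraries and 0.18 within days. The positive genes included Capg (r = 0.90), Tpm2 (0.87), Cap1 (0.83), which binds actin monomers, Acta2 (0.83) and Tagln (0.78). The 4 negative genes, a share below that of all genes, were the brush border genes Nherf1, listed in the files as Slc9a3r1 (-0.87), Cdhr5 (-0.83) and Espn (-0.80), and the formin Fmnl1 (-0.79). The calls of Tagln and Fmnl1 were lost when any 1 of 2 libraries was left out, and that of Espn without 1 library. Of the smooth muscle markers, 4 of 8 were positively correlated with Cnn2, Des with the highest r of 0.90, and of the fibroblast and pericyte markers also 4 of 8. Cap1, Nherf1, Fmnl1 and Des were named after their values were seen. Of the proximal tubule markers, 3 of 8 were negatively correlated. Of the tubular injury markers, 2 of 8 were positively correlated, Havcr1 (r = 0.82, and 0.83 within days) and Spp1 (0.76, and 0.50), also named after their values were seen. Called in the same way were 1 of 5 genes of other tubule segments (negative), 1 of 8 macrophage and 1 of 6 neutrophil genes (positive), and 0 of the 2 T cell, 8 endothelial, 8 urothelial and 4 platelet and red cell genes tested, where 2, 0, 0 and 1 had an unadjusted permutation p under 0.05. These marker counts stand beside the same shares of all genes, and the part of each cell type in the correlations with Cnn2 was not tested.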

How the data were processed

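TRIzol was used to isolate total RNA of the kidneys, and Illumina TruSeq to prepare it for sequencing. The submitters' processing notes name Trimmomatic, STAR and mm10. No tool version or annotation is given in the sources used here. The authors deposited raw read counts per gene symbol, of uniquely mapped reads only, unstranded and per strand, for each library, and the strand column that held 98.5% to 98.7% of strand-assigned reads was used. Reads on no gene, several genes, several places or unmapped (29.0% to 38.3% of a library) entered neither library sizes nor tests.

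The counts were fitted with edgeR 4.0.16 under R 4.3.3 (filterByExpr by day, 14300 genes kept, TMM, quasi-likelihood test with 1 term per day, or per day and format, over all 14 libraries). P-values were adjusted by Benjamini-Hochberg over all genes, and an adjusted p under 0.05 was called. Each SE is the log2 fold change divided by the square root of F. Log2 CPM used a prior count of 2. Correlations used Python 3.11.15 and 100000 permutations. The script was tested on simulated data. The 10 genes, the lists, which come from general knowledge, and the tests were chosen with earlier results of these data known. From each actin list, up to 3 called genes with the largest change and a mean of at least 5 CPM were named. Further genes named after their values were seen are Cnn1, Srf, Eps8, Myl12b, Ezr, Cap1, Nherf1, Fmnl1, Des, Myh11, Smtn, Havcr1 and Spp1.

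The results of the 10 genes were recomputed with DESeq2 1.42.0, with RLE or no scaling beyond total counts, on both strands together, without the filter or with a minimum of 10 counts throughout, with a minimum log2 fold change of 1, with the compared days alone, with a replicate block, with a term for format, in 1 format at a time, with a prior count of 0.5, and without each library. Where that left 1 library in a day and format, the spread came from the other groups. After the data were seen, the same settings, where they applied and apart from the minimum fold change, were added for each day and format against day 0 and for the actin lists and the genes named from them, but not for the marker lists or the genes most like Cnn2. In 26 pairs of libraries of the same day, counts differed by a chi-square of 5.69 to 228 per degree of freedom, above sampling noise, and no library was counted as a repeat.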

Additional observations from a re-analysis of the deposited data

Results flagged for a closer look

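Within groups of 4 or 5 libraries of a day, 30 sets of log2 CPM values were examined for a library far from the others, and 1.5 such flags are expected by chance. There were 2. Cnn3 in replicate 4 of day 1 was at 8.41 log2 CPM, with the other day 1 libraries between 8.16 and 8.22. Tpm1 in replicate 4 of day 0 was at 6.65 log2 CPM, with the other day 0 libraries between 6.36 and 6.37.

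The difference between 3-digit and 1-digit libraries was not the same at day 1 and day 3 for 4 of the 10 genes, by an interaction term in edgeR's quasi-likelihood test. The change in the log2 difference from day 1 to day 3 was -1.74 for Cnn2 (adjusted p = 0.00147), -1.63 for Flna (adjusted p = 0.00171), -1.16 for Tpm1 (adjusted p = 0.00321) and -0.91 for Tpm4 (adjusted p = 0.0294). The format has 2 or 3 libraries per day on each side, and what it stands for is not given in the labels. The summed smooth muscle, tubular injury, proximal tubule, macrophage and T cell markers did not overlap between formats on either day, nor did the fibroblast and pericyte, urothelial and platelet and red cell markers at day 1 and the endothelial markers at day 3, and their part was not tested. The T cell sum was low, at most 4.70 CPM in any library, and only 2 of its genes passed the filter.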

How the results depend on the processing

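The count of the 10 genes called higher stayed at 8 or more at day 1 and at 7 or more at day 3 under all settings run but 1. With a log2 fold change of at least 1 required, 6 genes were left at day 1, 5 at day 3, 0 between day 3 and day 1, 2 between formats at day 1 and 0 at day 3. Between day 3 and day 1 (2 called), 0 were called with total counts without TMM and with only the 2 days compared, 4 with DESeq2, 5 with only the 1-digit and 4 with only the 3-digit libraries, and 1 to 5 when single libraries were left out. Among all genes, those called higher and lower were 1721 and 487 of 14300 with total counts. They were 474 and 357 of 13795 with only the 2 days compared and 1610 and 1685 of 14300 with DESeq2. With only the 1-digit libraries they were 2576 and 2618 of 14430, and with only the 3-digit libraries 1231 and 1097 of 14556. Cnn2, Tmsb10, Flna and Tpm1, called with only the 1-digit libraries, were higher at day 3, whereas both main calls were lower. Between formats at day 1 (5 called), 3 to 5 remained called without single libraries, and at day 3 (2 called) 0 to 2, with 1 under total counts and 1 with no filter. For the correlation with Cnn2 over 14 libraries (3 called), 2 to 5 were called without single libraries, 1 without the 2 libraries farthest from the median and 0 over the 10 injured kidneys. The cause was not tested.

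With only 3-digit libraries, the difference between day 3 and day 1 turned to -0.59 for Cnn2, -0.043 for Tmsb4x, -0.24 for Flna and -0.31 for Tpm1, and with only 1-digit libraries to 0.22 for Tpm4. The Cnn3 difference between formats at day 1 turned to 0.11 with total counts. Over the 10 injured kidneys r turned to -0.24 for Cnn3, -0.045 for Actg1 and -0.036 for Tmsb4x. Within days, r turned to 0.16 for Cnn3, 0.057 for Tmsb4x and -0.51 for Tmsb10 with the mean of each day and format removed, and to 0.39 for Cnn3 and 0.22 for Tmsb4x with total counts. Uncalled values near 0 also changed sign without single libraries: Tmsb4x between days (-0.094 to 0.17), Actb (-0.042 to 0.32) and Tpm4 (-0.056 to 0.20) between formats at day 1, Cnn3 (-0.40 to 0.019), Tmsb10 (-0.16 to 0.57) and Pfn1 (-0.46 to 0.17) between formats at day 3, Cnn3 (-0.30 to 0.13) and Actg1 (-0.25 to 0.026) in the change of format difference, and within-day r of Cnn3 (-0.37 to 0.10) and Tmsb4x (-0.23 to 0.33).

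Total counts without TMM moved the median log2 fold change of all genes to 0.19 at day 3, 0.17 from day 1 to day 3, 0.24 between formats at day 1 and -0.19 in the change of that difference. Genes called higher and lower were then 3625 and 1286 against 2783 and 1974 at day 3, 1721 and 487 against 1219 and 1057 from day 1 to day 3, 3909 and 1439 against 2656 and 2345 between formats at day 1, and 979 and 1819 against 1302 and 1208 in the change of that difference. Replicate numbers did not pair the samples (13 same-number pairs, r of their deviations from -0.17 to 0.26, 4 over 0.1). With the replicate block, 9 genes were called at day 1, 8 at day 3 and 2 between these days. Of all 14300 genes, 2827 were then called higher and 2335 lower at day 1, and 2311 higher and 1792 lower at day 3. Between these days, 1076 were called higher and 968 lower. The lowest count of the 10 genes in a library was 211, for Tmsb10 at day 0, where counting error is largest.

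Chosen after seeing the data, these settings, apart from the minimum fold change, were run on the actin lists. The 49 and 45 list genes called higher became 41 to 56 at day 1 and 32 to 60 at day 3. The number of all genes called higher ranged from 2663 of 14473 to 4542 of 14430 at day 1. At day 3 it ranged from 1980 of 14517 to 4403 of 14430. Those called lower at day 1 (6) became 10 with only the 2 days compared, 3 with the replicate block, 14 with the format as a term, 14 with only the 1-digit libraries and 2 to 8 without single libraries, and those at day 3 (4) became 8 with the format as a term and 13 with only the 1-digit libraries. All genes called lower at day 1 were 2681 of 14300 in the main fit and 2988 of 13841 with only the 2 days compared. They were 2335 with the replicate block and 3983 with the format as a term, both of 14300. With only the 1-digit libraries they were 4297 of 14430. At day 3 they were 1974 of 14300 in the main fit. They became 3148 of 14300 with the format as a term and 3716 of 14430 with only the 1-digit libraries. List genes positively correlated with Cnn2 (15) became 31 with total counts, 6 to 25 without single libraries, 1 without the 2 farthest libraries and 0 over the injured kidneys, and the negative ones (4) became 0 in both of the last. Uncalled values that changed sign were Cnn1 at day 1 (-0.79 with the format as a term, -1.88 with only the 1-digit libraries, -0.997 to 0.95 without single libraries) and at day 3 (-0.43 with the format as a term, -0.086 to 1.01), Myh11 at day 1 (0.49 with only the 3-digit libraries, -0.80 to 0.096) and Myl12b at day 3 (0.11 with total counts, 0.026 with the replicate block, 0.056 with only the 3-digit libraries, -0.084 to 0.033).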
